A study of Rattus norvegicus with 12 samples.

Results

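The transcripts present in silenced hippocampal cultures were described from 3 arrays of 12 in the series, namely every array of cultures kept in Block without actinomycin D (ActD), taken at 5, 30 and 60 min. Cells came from embryonic day 18.5 Sprague-Dawley rats and were held for 12 days in culture on a feeder layer of glia, so each RNA sample holds neuronal and glial transcripts, and fewer cells of a type cannot be told apart from less RNA per cell. Block was a cocktail of 50 µM D-APV and 40 µM CNQX, which shut NMDA and non-NMDA glutamate receptors, with 100 nM tetrodotoxin, which shuts voltage-gated sodium channels. Cultures of all 4 treatment arms first spent 3 h in it. The 9 other arrays carried Block with 25 µM ActD, an inhibitor of transcription, or BiC/4AP with or without ActD. BiC/4AP is 50 µM bicuculline with 500 µM 4-aminopyridine. Each of these arms was sampled at the same 3 times. By the paper's methods BiC/4AP was given for 5 min only, with RNA taken right after it or 30 and 60 min after the stimulus. Each time in Block had 1 array and all samples carry the same replicate number, so every SD below is the spread over 3 times and not over repeated cultures.

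The inhibitors stop action potentials and fast excitatory transmission. The paper's methods give their purpose as lowering the basal transcription that spontaneous activity drives. In any cell the most abundant messages tend to encode the translation machinery, the cytoskeleton and energy metabolism. Neurons are known for messages of neurofilaments, synaptic proteins and growth-cone proteins, and astrocytes for glial fibrillary acidic protein and lipid carriers. Immediate early genes such as FOS and ARC are transcribed within minutes of synaptic activity and are low in quiet neurons.

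RNA was hybridized to human cDNA clones on a nylon filter, and 8496 of 9600 spots carried 1 gene symbol, for 6284 genes. A level is the log2 intensity of a spot after the arrays had been brought to a common mean and SD, so that 0 is the array mean and 1 unit is about 1 doubling. A spot's signal also depends on the DNA deposited, the length of the clone and its match to rat sequence, so ranks below are ranks of signal. Of the 6284 symbols, 5782 (92.0%) exist as rat gene symbols in RefSeq. On the 5, 30 and 60 min arrays the median intensity of all spots was 31.8, 58.5 and 69.8, and the correlation of levels between Block arrays was 0.94 to 0.96 across spots, which are not replicates. In all 7903 named clones (93.0%) were brighter on every Block array than 95% of its blank spots. A level could be ranked for 8444 named clones and 6253 genes, and 52 clones with a placeholder value were left out.

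The signal was concentrated in few spots. The 100 brightest named clones held 48.6% of the summed intensity of named clones at 5 min, 43.9% at 30 min and 47.9% at 60 min. The central 50% of clones lay between -0.66 and 0.71, 95% lay below 2.91, and the highest reached 9.05. The median SD of a clone over the 3 arrays was 0.25, and it was 0.26 in the brightest 25% and 0.29 in the dimmest 25%.

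The brightest clone of all belonged to IFITM3, an interferon-induced membrane protein. Its intensity was 30100 at 5 min, 29507 at 30 min and 29982 at 60 min, a level of 9.05 ± 0.60 (SD, n = 3 arrays). The other IFITM3 clone read 34.6, 50.8 and 74.5 at the same times, a level of -0.12, which is near the middle of all clones. NDUFB6, a subunit of mitochondrial complex I with 1 clone, read 28793, 26944 and 27358 (level 8.94 ± 0.64). SUB1, a transcriptional coactivator, had 1 clone at 21763, 27352 and 22185, while its others had levels of 0.27 and -0.47. These 3 genes thus owe their rank to 1 clone each, and in 2 of them other clones of the gene were ordinary.

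The next genes were of mixed function. ELOF1, a transcription elongation factor, read 10642, 17967 and 34349. ASL, the argininosuccinate lyase of the urea cycle, read 18600, 18689 and 17364. ABHD5, which activates a triglyceride lipase, read 17937, 16152 and 17889. ELOF1 increased with time, as the array medians did, and the others stayed level. PYCARD, an inflammasome adaptor, averaged 8.06 ± 0.65 with 1 clone and -0.59 with the other. KIFC1, a kinesin of the mitotic spindle, averaged 8.01 ± 0.47. RGR, a retinal opsin, averaged 7.98 ± 0.42 with 1 clone and -1.49 with the other. FABP3, a fatty acid carrier known from heart muscle, averaged 7.95 ± 0.64, and DDX42, an RNA helicase, 7.94 ± 0.63. None of these is known as a marker of hippocampal neurons. They were followed by CCDC32, ZNF706, PIGS, SPOCK3, PTGES, DCAKD, MMAB, UBE2V2, C1QB, R3HDM1, NUFIP1, PREB, MAT2A and TRIOBP, with levels from 7.86 in CCDC32 to 7.34 in TRIOBP.

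**Figure D1:**
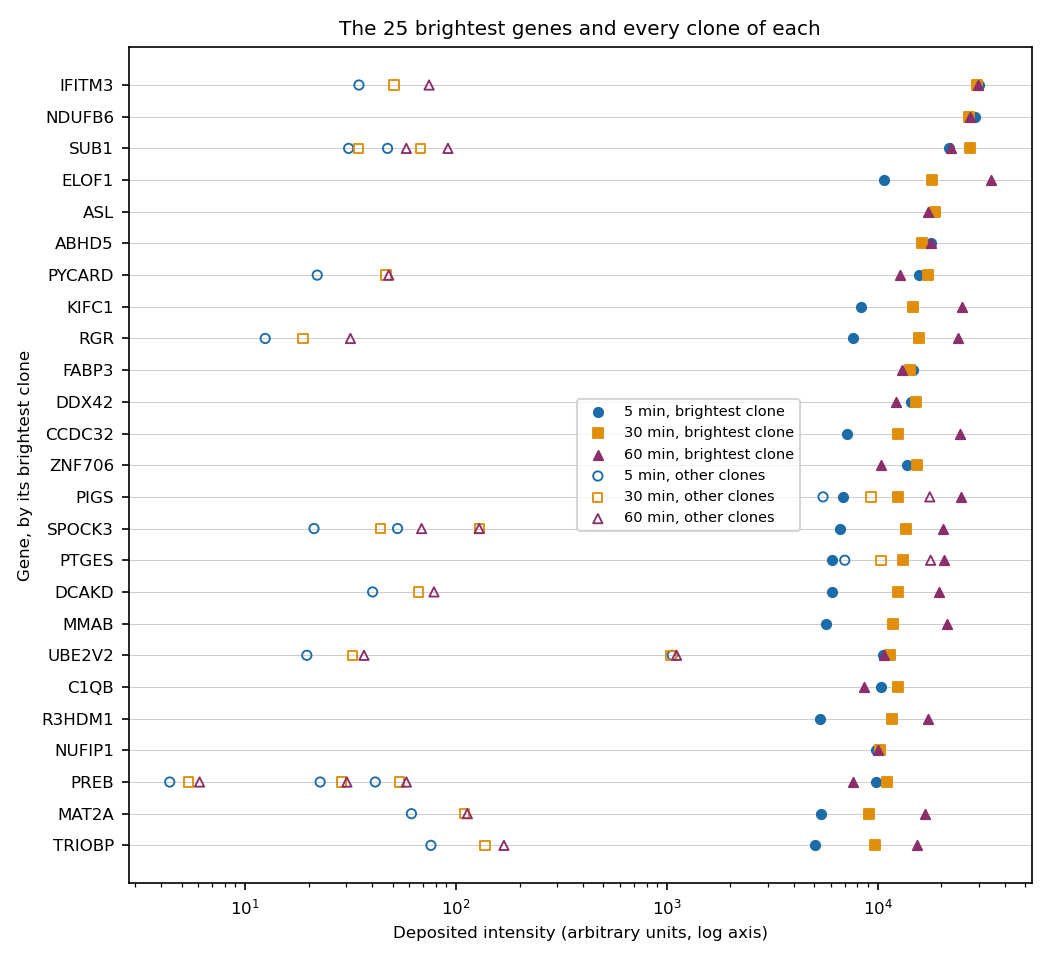
Deposited intensity (log axis, arbitrary units) of every clone of the 25 brightest genes on the 5, 30 and 60 min Block arrays, with the brightest clone of a gene filled and its other clones open. PIGS and PTGES have both clones at the bright end, whereas the other clones of IFITM3, SUB1, PYCARD and RGR lie orders of magnitude lower.

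Only PIGS, a subunit of the enzyme that attaches GPI anchors, and PTGES, a prostaglandin E synthase, had 2 clones among the 100 brightest named clones. PIGS averaged 7.84 and 7.43, and PTGES 7.71 and 7.60. Of the 98 genes these 100 clones stand for, 33 had further measured clones outside the group, 54 in all, with a median level of 0.16. Among those 54 clones, 16 (29.6%) fell in the top 10%. UBE2V2, a ubiquitin-conjugating enzyme variant, was graded in between, with clones at 7.60, 4.26 and -0.95. PREB, a regulator of transport from the endoplasmic reticulum, had clones at 7.38, -0.12, -1.03 and -3.38. A bright spot was therefore a poor guide to the level of a gene's other clones.

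The 100 brightest spots, named or not, fell into 2 sets by their course over time. In 38 of them the scaled level was lower at 60 min than at 5 min, with a median difference of -1.23 (range -1.75 to -0.91), and raw intensity was nearly flat, with a median ratio of 0.829. In the other 62 it was higher, with a median difference of 0.72 (range 0.42 to 1.09), and the median ratio of raw intensity was 3.18. The bounds -0.5 and 0.35 fall inside the gap between these 2 sets, so none of the 100 lay between them. Of the named clones of the 40th to 90th percentile, 64.3% lay between these bounds. IFITM3, NDUFB6, SUB1, ASL and ABHD5 belonged to the first set, and ELOF1, KIFC1, RGR, PIGS and PTGES to the second. The same 38 and 62 spots separated in the 9 arrays of the other arms, with shifts of the arm means from -1.71 to -0.61 in the first set and from 0.84 to 1.32 in the second. The split was thus also present outside silenced cultures, and its cause was not tested.

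**Figure D2:**
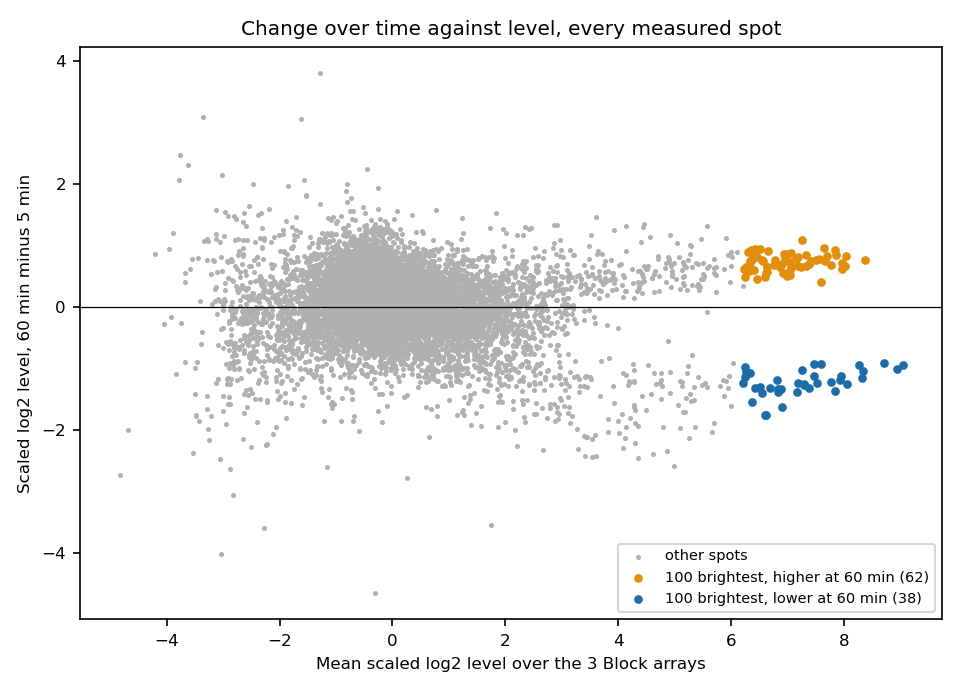
Difference in scaled log2 level between the 60 and 5 min Block arrays against the mean level of each measured spot outside the blank position, with the 100 brightest spots coloured by the sign of the difference. The bright spots form a lower band of 38 and an upper band of 62 with none in between, and the remaining spots scatter around 0.

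Position on the filter moved with brightness. The spots are indexed in blocks of 25 positions, and the blocks were read as 24 columns by 16 rows. At the same position in the 8 adjacent blocks of the 100 brightest spots, the median percentile of level was 75.6 to 89.5, depending on direction, and it was 57.8 for adjacent spots within the block. Across all spots, levels at the same position in neighbouring blocks of a row correlated with a Spearman rho of 0.49 (8728 pairs), against 0.14 (356 pairs) where the index wraps to the next row and -0.0043 for neighbours within a block. Spots beside the set that was lower at 60 min had a median shift of -0.50 (248 spots), and those beside the set that was higher had 0.24 (387 spots). In all 663 named clones (7.80%) were in or beside the 100 brightest spots. The part of position in the levels of individual clones was not tested, and the closing section gives the lists whose rank moved most without those spots.

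**Figure D3:**
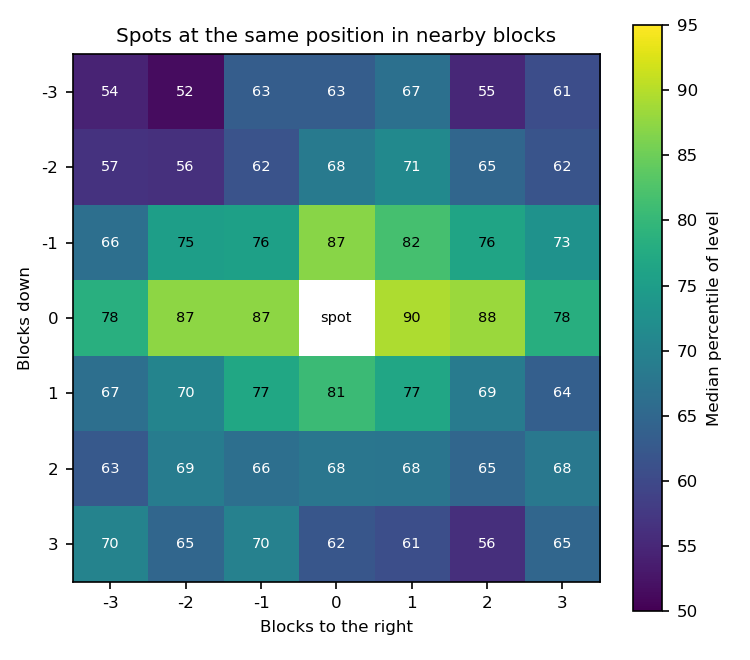
Median percentile of level (0 to 100) of spots at the same position in blocks up to 3 rows and 3 columns away from each of the 100 brightest spots. The blocks directly right and left reach 89.5 and 87.4, and the values decline with distance, more slowly along a row than along a column.

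At the other end, the 12 dimmest clones could not be told from blank spots. None of the 12 was brighter than 95% of the blanks on all 3 arrays. The lowest was a clone of WIPI2, an autophagy protein, with 3.88, 1.42 and 1.26 intensity units (level -4.83 ± 1.43). CPNE4, a copine, read 4.15, 0.9 and 2.2 and EDEM3, which acts in the degradation of misfolded glycoproteins, 0.71, 6.79 and 3.82. GBA2, ZNF22, EYA2, LLGL2, EFEMP2 and NBL1 followed, with levels from -3.96 in GBA2 to -3.67 in NBL1. RTN3 (a reticulon), UBE3A (the ubiquitin ligase of Angelman syndrome) and NGRN also had a clone here, at -3.83, -3.77 and -3.68, but the medians of their clones lay at percentiles 34.9, 33.7 and 37.4 among genes. Since the SDs of these clones reached 1.43, their order is not resolved.

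Among gene families the cytosolic ribosomal proteins stood highest. A gene was represented by the median of its clones' mean levels and ranked among all 6253 named genes. The SD of a gene is that of the medians of its clones on each array, which need not centre on its level. The 38 genes of the large (60S) subunit had a median percentile of 91.7, with 92.2, 90.7 and 90.3 on the 5, 30 and 60 min arrays. The 21 genes of the small (40S) subunit had 91.3, with 92.3, 90.5 and 90.8. In the top 10% were 22 of the 38 (57.9%) and 12 of the 21 (57.1%), beside 10.01% of all named genes, and no member of either list was in the lowest 25%. All of their 96 and 54 clones were above the blank spots on the 3 arrays.

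RPL35, a protein of the large subunit, was the highest, with a median intensity of its 2 clones of 480, 636 and 809 and a level of 3.49 ± 0.26. It was followed by RPL38 at 3.21 ± 0.24 and RPL31 at 3.05 ± 0.16. In the small subunit RPS26 had 355, 541 and 657 (level 3.17 ± 0.15), RPS19 3.03 ± 0.09 and RPS24 2.80 ± 0.26. Apart from RPL35 and RPL38, neighbours among these 6 genes differed by less than the larger of their SDs, so their order is loose. The lowest members were RPL13 at -0.01 and RPL39 at -0.17 ± 0.28 in the large subunit, and RPS10 at 0.36 ± 0.28 and RPS28 at 0.34 ± 0.10 in the small. The 8 clones of RPL13 ran from -1.25 to 1.16, with medians of -0.08, -0.07 and -0.08 by array. Proteins of the mitochondrial ribosome, encoded by other genes, had a median percentile of 42.2 (55 genes), and 45.3, 46.9 and 45.4 by array. Of these genes 5.45% were in the top 10%. MRPL34 (2.54), MRPS33 (2.36) and MRPS25 (1.65) led them and MRPL44 (-1.77) and MRPL13 (-2.39) closed them.

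The start of ribosomal protein messages is known for a terminal oligopyrimidine tract, a C followed by pyrimidines, through which their translation is controlled. The sequence around the start site is shown for the 6 ribosomal protein genes of highest level, from the RefSeq rat assembly GRCr8. Each line runs 5′ to 3′ on the gene's strand from 20 bases before the start to 10 bases into the transcript, and capitals mark a run that opens with C and holds at least 5 pyrimidines (C or T), at least the first 5 of which lie from 4 bases before to 6 bases after the start.
Rpl35, chr3:43165912-43165941, minus strand: ggccccgccccttcctCTTTCTCTCgaacc
Rpl38, chr10:100200415-100200444, plus strand: ggaagcttcgttctttttccgttgttcggt
Rps26, chr7:1643395-1643424, minus strand: gtcgggagagccgccgggtCCTCTTTCgag
Rpl31, chr9:49143091-49143120, plus strand: ccatcccacaatccctcgcgCCTTTCCTTT
Rps19, chr1:89608668-89608697, plus strand: cgacgcccgacttgtgcgcccgggaaaccc
Rplp1, chr8:71290863-71290892, minus strand: tgcgcgcaggcgcatgtgatCCTTTCCTCa

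Of these 6 windows 4 held the run. Searched on the gene's strand only, it was found in 28 of 52 ribosomal protein genes matched to 1 promoter (53.8%) and in 9.73% of all 33469 promoters of the table. Of the 4615 matched named genes 10.1% had it, of the genes in the top 10% that encode no ribosomal protein 11.0% (429 genes), and of the lowest 10% of genes 9.70% (464 genes). Among the genes of the 100 brightest clones 12 of 75 had it. None of these shares was tested. A run of these letters is a description and not a mapped element.

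Elongation and initiation factors ranked lower, as did the lists of splicing, proteasome, chaperone and respiratory chain genes. Elongation factors had a median percentile of 83.8 (7 genes), led by EEF1G at 2.12 ± 0.17 and EEF1A1 at 1.98 ± 0.30, with TUFM at 0.61 and EEF1D at 0.14 lowest. Initiation factors had 59.7 (36 genes) with none in the top 10%, from EIF6 at 1.52 to EIF2B5 at -1.64. Splicing factors and hnRNP proteins had 75.04 (40 genes), and 73.4, 72.9 and 73.6 by array. They were led by SF3A1 at 5.17 ± 0.33 with 1 clone, HNRNPH1 at 2.56 and SF3B2 at 2.05, and closed by HNRNPA0 at -1.83 over 7 clones. Proteasome subunits had 58.5 (35 genes) and chaperones 64.4 (25 genes). PPIA, the prolyl isomerase that binds cyclosporin, was the highest chaperone at 2.86 ± 0.21, and all 5 of its clones lay between 1.76 and 3.49. The respiratory chain and ATP synthase, with 73 genes, sat at the middle (50.9), although NDUFB6 was among the brightest genes. NDUFA3 (4.08 ± 1.25) and NDUFB11 (4.01 ± 1.09) came next.

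Glycolytic enzymes had a median percentile of 76.7 (16 genes), with 72.1, 78.0 and 73.8 by array. ALDOA, an aldolase, was highest at 2.63 ± 0.80, with 6 clones spread from 0.09 to 7.19. Next came ENO3 (2.04 ± 0.26), HK1 (1.68 ± 0.76), GPI (1.39 ± 0.14), the brain aldolase ALDOC (1.32 ± 0.50) and the neuronal enolase ENO2 (0.94 ± 0.36). PFKL (0.81), PKM (0.70), GAPDH (0.62), LDHB (0.08) and PGAM2 (-0.05) lay in the middle of the list. The 6 clones of PFKL ran from -2.97 to 4.50. ENO1 (-0.11), PGAM1 (-0.16), TPI1 (-0.18), PFKM (-0.73) and PFKP (-0.93) were lowest. GAPDH, commonly used as a loading control, lay at percentile 76.0 among genes. Its 4 clones lay between 0.22 and 0.81, so its level did not rest on 1 spot.

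Tubulins, the subunits of microtubules, had a median percentile of 69.2 (15 genes). TUBA1A, the main alpha tubulin of young neurons, was highest at 1.87 ± 0.53, with an intensity of 161, 303 and 175 from 1 clone. TUBA1B followed at 1.21 ± 0.21 over 13 clones, then TUBB4B (0.96), TUBA4A (0.72), TUBB2A (0.69), TUBG1 (0.48), TUBA1C (0.42), TUBB (0.37), TUBB6 (0.23) and TUBA3C (0.11). TUBB4A (-0.38), TUBG2 (-0.46), TUBB3 (-0.51), TUBD1 (-0.65) and TUBB2B (-2.16) lay below. TUBB3 is the beta tubulin used to mark neurons, and it read 22, 57 and 47 as the median of 2 clones. Tubulin coding sequences are alike, and how far these clones separate the tubulin messages was not tested.

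Actins and proteins that bind actin monomers had a median percentile of 65.5 (15 genes). The smooth-muscle actin ACTA2 (5.96 ± 0.56) and the skeletal-muscle actin ACTA1 (5.31 ± 0.41) read far above the cytoplasmic actins ACTG1 (2.22 ± 0.22, 9 clones) and ACTB (1.23 ± 0.31, 7 clones). ACTA2 and ACTA1 are represented by 1 clone each. The thymosins TMSB10 (5.13) and TMSB4X (2.63), which sequester actin, were also high, and cofilin CFL1 had 1.35. PFN2 (0.27), TWF2 (0.13), ACTG2 (0.04), ACTC1 (-0.14), PFN1 (-0.27), CFL2 (-0.45), CAP2 (-0.48) and DSTN (-0.87) were near or below the middle. The actin coding sequences are also alike, and how far these clones separate the actin messages was not tested.

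**Figure D4:**
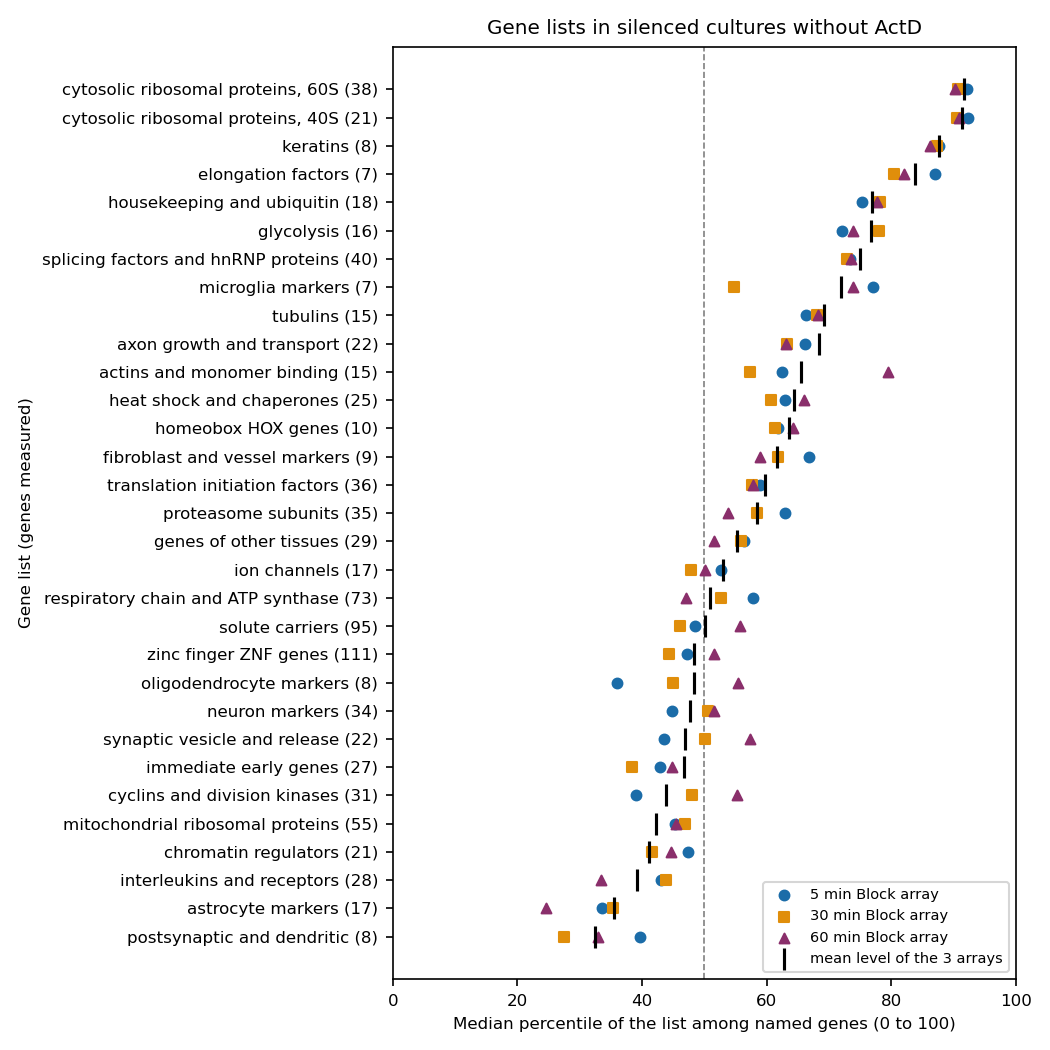
Median percentile of each gene list among named genes on the 5, 30 and 60 min Block arrays (coloured points) and for the mean level of the 3 (black tick), with the number of genes measured in brackets. Ribosomal proteins lie above 90 on every array, while neuron markers stay between 44.8 and 51.5 and astrocyte markers between 24.6 and 35.3. In some lists, such as axon growth and transport, the tick lies outside the range of the 3 points.

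Over the mean of the 3 arrays, astrocyte markers had a median percentile below the middle of all genes, and the short microglia and fibroblast lists above it. Neuron and oligodendrocyte markers were slightly below it in the mean and on either side of it by array. The 34 measured neuron markers of 74 listed had a median percentile of 47.7, with 44.8, 50.6 and 51.5 by array, and 4 were in the top 10%. CALB1, a calcium-binding protein of neurons, read 1105, 2362 and 3664 (level 5.25 ± 0.41), and PCLO, a scaffold of the presynaptic active zone, 2019, 2307 and 2037 (5.24 ± 0.51). STMN3 (1.79 ± 0.18) and STMN2 (1.72 ± 0.14), microtubule regulators of growing axons, came next. GAP43 of growth cones was at 0.82, the microtubule-associated MAPT at 0.63 and the SNARE protein SNAP25 at 0.11 ± 0.06. The neurofilament NEFM (-1.03), the synaptic GTPase RAB3A (-1.23) and the intermediate filament INA (-1.59) were low. The lowest was the AMPA receptor subunit GRIA2, whose single clone read 2.76, 35.4 and 1.15 and so was under the level of the brightest 5% of blanks on 2 arrays. The neuron markers MAP2, NEFL and CAMK2A had no clone among the named spots.

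The 17 measured astrocyte markers of 34 had a median percentile of 35.4, and none was in the top 10%. ALDOC (1.32 ± 0.50), MLC1 (0.92 ± 0.11) and GFAP (0.88 ± 0.26), the filament protein of astrocytes, were highest. APOE, a lipid carrier, was at -1.31 ± 0.41, the filament protein VIM at -1.71 ± 0.44 and ACSBG1 at -2.91 ± 0.38. Neuron markers exceeded astrocyte markers by 0.25 in median level at 5 min, 0.33 at 30 min and 0.61 at 60 min, and by 0.25 in the mean of the 3 arrays. The SD of that difference over arrays was 0.19, and with block and position medians removed the difference was -0.023, so the sign is not secure. Genes known from other tissues (29 measured of 72) had a median percentile of 55.2. The median level of neuron markers minus that of these genes was -0.28 at 5 min, -0.13 at 30 min and -0.00034 at 60 min. On these clones the neuron markers thus had no higher signal than genes of muscle, blood or liver, and the labelled cell type could be checked only in part.

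The other marker lists were short. The 7 microglia markers, with 1 clone each, had a median percentile of 71.9, with 77.0, 54.8 and 73.9 by array, and none was in the lowest 25%. C1QB, a complement subunit, read 10336, 12518 and 8559 and was among the 25 brightest genes, whereas its partner C1QC was at -0.42 ± 0.06. CTSS (0.78), AIF1 (0.64), TYROBP (0.47), CD68 (0.20) and CD14 (-0.35) lay between. Fibroblast and vessel markers had a median percentile of 61.7 (9 genes) and were divided, with the proteoglycan BGN (6.08), ACTA2 (5.96), S100A4 (4.88) and fibronectin FN1 (4.62) in the top 10%, and DCN (-0.86), IGFBP7 (-0.89) and CLDN5 (-1.70) in the lowest 25%. Oligodendrocyte markers had a median percentile of 48.2 (8 genes), with 36.0, 45.0 and 55.3 by array, from MAL (0.19) to PDGFRA (-2.90). The oligodendrocyte median was 16.6 with block and position medians removed and 36.9 on the 9 other arrays. Muscle myoglobin MB, with a level of 6.33 ± 0.54 from 1 clone, was the highest gene of other tissues. ACTA1, the B-cell protein MS4A1 (3.09), KRT14 (2.28) and SERPINA1 (1.97) came next, while albumin ALB (-0.91) and the globin HBB (-1.07) were low. The KRT14 and SERPINA1 values are midpoints of 2 clones that disagreed, at 0.82 and 3.75 for KRT14 and at -0.20 and 4.14 for SERPINA1. Keratins, which epithelia express, had a median percentile of 87.6 over 8 genes, led by KRT7 (4.25), KRT14 (2.28) and KRT15 (1.78).

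Genes of synaptic transmission were on the whole moderate. Synaptic vesicle and release genes had a median percentile of 47.0 (22 genes). AP2B1, a clathrin adaptor subunit, was highest at 5.39 ± 0.37, followed by PCLO and by the proton pump subunit ATP6V0C at 1.20, with RAB3A and the clathrin light chain CLTA (-2.44) lowest. Only 8 of 53 postsynaptic and dendritic genes were measured, and their median percentile was 32.4. HOMER1, a scaffold of the postsynaptic density, was highest at 1.70 ± 0.06, then the calcium-dependent kinase CAMK4 (0.74) and PPP1R1B (0.41), while HOMER2 was at -1.96. Genes of axon growth and transport had 68.4 (22 genes) for the mean of the 3 arrays, and 66.1, 63.2 and 63.1 by array. The kinesin light chain KLC1 at 4.06 ± 0.35 was ahead of STMN3 and STMN2, and INA and APLP1 (-1.63) were at the low end.

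Immediate early genes had a median percentile of 46.7 over 27 genes for the mean of the 3 arrays, and 42.9, 38.4 and 44.7 on the 5, 30 and 60 min arrays. Without the 60 min array it was 33.4, and on the 9 other arrays 40.5. FOSL2 was highest at 4.28 ± 0.60, then IER3 (2.95 ± 0.37) and HOMER1 (1.70 ± 0.06). The IER3 value is the midpoint of 2 clones that disagreed, at -0.31 and 6.21. FOS read 22, 50 and 68 (level -0.39 ± 0.30) and ARC 28, 40 and 42 (-0.60 ± 0.22). GADD45G (-1.26) and NR4A2 (-3.28 ± 1.06) were lowest. FOS levels in Block were -0.72, -0.32 and -0.12, against a lowest of -1.03, a median of -0.61 and a highest of -0.42 over the 9 other arrays. ARC levels in Block were -0.36, -0.64 and -0.81, against -1.23, -0.75 and 0.32. In all 27 genes the range in Block overlapped that of the other arrays, which include cultures stimulated with BiC/4AP for 5 min. Over 6211 genes measured on every array, 22 (0.354%) had ranges that did not overlap.

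The remaining families spread over the whole scale. Zinc finger genes (111), solute carriers (95) and ion channels (17) had median percentiles of 48.3, 50.1 and 52.9. The ion channels had 4 of 20 clones in or beside the 100 brightest spots, and their median was 29.1 without those spots and 41.3 on the 9 other arrays. Each list was led by single bright clones, ZNF706 (7.84) and ZNF670 (6.94), the copper transporter SLC31A1 and the mitochondrial carrier SLC25A44 (6.64), and the channel-interacting protein KCNIP3 (6.90). Interleukins and their receptors, a list that also holds CXCL chemokines, had 39.2 (28 genes), with the chemokine CXCL6 at 6.83. Chromatin regulators had 41.1 (21 genes). Homeobox HOX genes had 63.6 (10 genes), from HOXD4 (3.91) to HOXB9 (-2.67). Cyclins and division kinases, a list that also holds MCM and other CDC genes, had 43.8 (31 genes). It ran from the helicase subunit MCM8 (6.08) to CCNB1 (-2.47), the cyclin of mitosis.

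Several clones of a gene allow its level to be checked within an array. Over 1477 genes with at least 2 measured clones (3668 clones), 16.4% of the variance of levels lay between genes. In the 1053 genes with exactly 2 clones, Pearson's r between the clones was 0.18 and Spearman's rho 0.15, across genes that are not independent replicates. The median absolute difference between clones of a gene was 1.01, about 4 times the median SD of 1 clone over arrays (0.25). The clones of a gene differed by under 1 unit in 645 genes (43.7%) and by over 4 in 120.

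Clones of 1 ribosomal protein gene lay closer together. In the 38 such genes with several clones, 41.9% of the variance lay between genes, the median absolute difference was 0.47, and in 34 (89.5%) even the lowest clone was above the median gene. Over the other 1439 genes these values were 12.7%, 1.03 and 26.3%. As the lists were chosen with results known, this is a description without a test.

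Among genes with 3 or more clones in the upper 50%, the closest were RPS6, whose 3 clones lay within 0.01 of each other at 2.27, RPL27A (range 0.05), the histone variant H3-3B (0.15), CSTPP1 (0.17), the mitochondrial import protein TOMM34 (0.23) and TGFB1I1 (0.23). The widest were SUB1 (9.18), UBE2V2 (8.54), GNB1 (8.43), SPOCK3 (8.23), PRELID1 (from -3.48 to 4.53) and CNP (7.95). GNB1, a G-protein beta subunit, had clones from -2.22 to 6.21. The most clones belonged to CYCS, the cytochrome c of the respiratory chain, and TUBA1B, each with 13 measured, and RSL24D1 with 12. CYCS ran from -1.53 to 1.65 around a median of -0.61. TUBA1B had 1 clone at 5.88 and the others between -0.76 and 1.82, and RSL24D1 ran from -1.80 to 1.99 around -0.71.

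**Figure D5:**
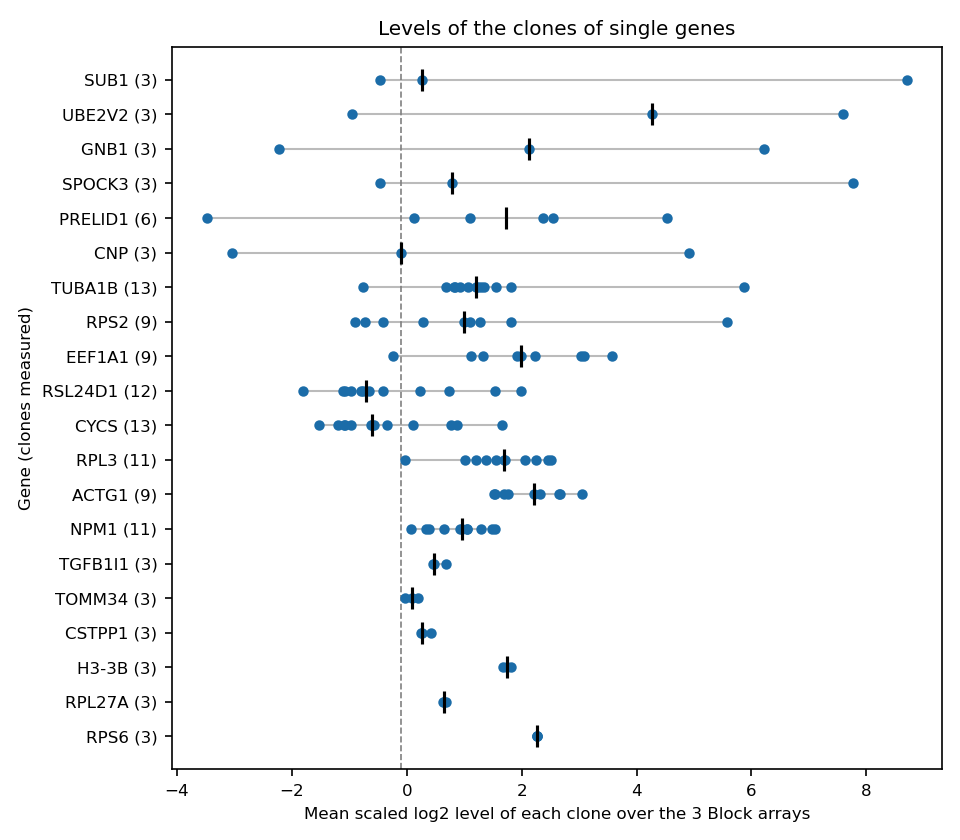
Mean scaled log2 level of each clone (point) over the 3 Block arrays for the genes with the closest, the widest and the most clones, with the median of the clones (black tick) and the median of all named clones (dashed line). RPS6 and RPL27A form 1 point each, whereas SUB1 and SPOCK3 have 1 clone far to the right of the others.

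Of the 424 genes with at least 3 measured clones, 7 of the 20 highest by median were ribosomal proteins, a class that supplied 20 of the 424. This cut was chosen after the values were seen. The 4 highest were UBE2V2 (4.26), TBC1D22A (4.07), the epithelial 14-3-3 protein SFN (3.42) and the death receptor TNFRSF21 (2.94), whose clones each spanned more than 4 units. CCDC47 (2.66), ALDOA (2.63) and GNB1 (2.13) also had a place. PPIA (2.86), the polyubiquitin gene UBB (2.83), TPT1 (2.33), ACTG1 (2.22), EEF1G (2.12) and EEF1A1 (1.98) were among the 20 as well. Genes with 5 or more clones had a median percentile of 64.8 (58 genes), those with 3 to 4 56.4, those with 2 56.2 and those with 1 47.6. Symbols shared with the rat and those not shared had median percentiles of 50.0 (5751 genes) and 49.7 (502 genes).

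Whether any level was particular to silenced cultures without ActD was tested against the 9 other arrays. With limma, 0 of 9554 spots (0%) passed an adjusted p of 0.05, and 284 had an unadjusted p under 0.05. Mean levels in Block and in the other arrays correlated at 0.99 across spots. In the brightest 25% of clones the strongest candidates for a higher level in Block were clones of WDR77, LRRC46, ACSS3, EFNA3 and DGCR8, a microRNA-processing protein. WDR77, a methylosome subunit, had 5 clones, and the gene lay at percentile 32.0 by their median. The WDR77 values that follow are those of 1 clone. WDR77 averaged 1.79 ± 0.08 in Block, against 0.85 to 1.56 in the other arrays, a fitted difference of 0.52 ± 0.16 (SE, adjusted p = 1). TIMP4, ACTA1, TMEM125, ACP3 and SERF2 led the other direction. For ACP3 and SERF2 this was 1 of 3 clones, and the genes lay at percentiles 45.3 and 39.6 by their medians. TIMP4, a metalloproteinase inhibitor, averaged 4.09 ± 0.53 in Block, against 4.05 to 5.26, a difference of -0.50 ± 0.15 (SE, adjusted p = 1). The levels described here are thus not shown to differ from the mean of the other treatment arms. Block was not tested against stimulated or ActD-treated cultures separately.

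Some bright clones varied widely between the Block arrays. HLA-DRB4, an antigen-presenting protein, read 567 at 5 min, 113 at 30 min and 99.5 at 60 min, a range of 3.54 in scaled level. NARF read 1996, 4366 and 666 (range 2.71), HCLS1 702, 1518 and 262 (2.59), AZIN1 367, 825 and 149 (2.57) and IGHG1 422, 1256 and 232 (2.51, 1 of 5 clones). The last 4 were low at 60 min on the other arrays too. NARF had a level of 5.81, 5.93 and 3.23 in Block at 5, 30 and 60 min, against 6.03 to 6.29, 5.80 to 6.43 and 3.18 to 4.01 on the 3 other arrays of each time. HLA-DRB4 differed in this, as its 5 min level of 3.98 in Block stood against 0.69 to 1.23 on the other 5 min arrays. For the 4 clones that were low on all 60 min arrays, a course over time and a difference between the sets of arrays made at each time cannot be told apart.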

How the data were processed

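RNA of 12 cultures was labelled with 33P by the authors and hybridized to nylon cDNA arrays, which were imaged on phosphor screens. The labels describe 3 coverslips per sample, and the methods describe RNA combined from separate experiments. The deposited values are spot intensities on a linear scale with no normalization between arrays, and the second deposited table held identical intensities (100%). An exact value of 10 was read as a placeholder, and such a spot was given no level. The array mean and SD and the blank cutoffs were computed with these values in. On the 5 and 30 min Block arrays the 95th percentile of the blanks was 10, the placeholder value itself. With the 99th percentile of the blanks as cutoff, 7762 named clones were above it on all 3 arrays. Position 25 of each block (384 spots, unnamed and dim) was taken as blank from the data. Values under 1 were set to 1, and log2 intensity was centred on the array mean, divided by the array SD (the z-score of the study) and multiplied by the mean SD, 1.73. Clone names came from the platform annotation; the 21 spots with several symbols were not named. Of the raw table's indices, the one that matches that annotation was used.

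The 3 Block arrays were averaged and, in limma 3.58.1 (R 4.3.3; lmFit, eBayes with trend, time as a factor, two-sided, Benjamini-Hochberg, 6 residual degrees of freedom), set against the 9 others. The fit was tested on simulated data. The members, gene lists and tests were chosen with earlier results of these data known. Named genes are the 25 brightest, the 12 dimmest clones, the highest and lowest of each list (all of the tubulins, actins and glycolysis), the genes with the closest, widest and most clones, and the clones with the largest range or smallest p; further list members are given as context. Gene lists were described by percentiles, with no test. The number of arrays limits the precision. Alternatives covered scaling, background, position, filters, clone choice, index and each array left out.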

Additional observations from a re-analysis of the deposited data

Results flagged for a closer look

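A signal appeared in spots outside the named clones. Spots without a gene symbol outside the blank position numbered 699. On each of the 3 Block arrays 663 of them (94.8%) were brighter than 95% of the blanks. Their median level was 0.04 and the highest was 8.32, and 9 of them were among the 100 brightest spots. The count for the blank spots themselves was 0, which was nearly fixed in advance because the cutoff was taken from them. No group of samples had the 4 arrays needed to look for a single array far from the others.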

How the results depend on the processing

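The ranks at the top moved less than those at the bottom. Of the 25 brightest genes 25 were kept under quantile scaling, median centring, normexp correction, scaling without blank, unnamed and placeholder spots, and the filter on dim clones. These scalings keep the order of clones within an array, and the filter removes only dim clones, so they could hardly change that set. With block and position medians removed 19 were kept, and with 1 Block array left out 20 to 24. Of the 12 dimmest clones 6 were kept with position medians removed, 0 with only clones above the blanks (by construction), and 5 to 8 with an array left out. With position medians removed the astrocyte markers moved to percentile 50.7, the genes of other tissues to 58.4 and glycolysis to 72.8, and the neuron minus astrocyte difference reversed to -0.023. It was 0.22 to 0.47 with an array left out, and neuron markers were at 45.6 to 53.1 and genes of other tissues at 53.9 to 59.1. Genes of other tissues were at 51.8 with only clones above the blanks. On the 9 other arrays the 60S list was at 90.3.

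Chosen after the data were seen, leaving out the 100 brightest spots and their neighbours put the 60S list at 93.8 and the 40S list at 93.9, and using only genes with 2 or more clones gave 93.9 and 93.1 for them, 74.4 for genes of other tissues and 52.7 for glycolysis. The cause of these shifts was not tested.

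The variance between genes was 17.5% without the brightest spots and their neighbours and 2.01% with the other spot index, where Spearman's rho was 0.021. That rho was 0.11 with position medians removed and with only clones above the blanks, and 0.16 without the brightest spots. The median difference between clones was 0.81 with normexp, 1.11 without blank, unnamed and placeholder spots, 0.89 with position medians removed, 0.91 with only clones above the blanks, 0.93 without the brightest spots, 1.22 with the other index and 0.99 to 1.05 with an array left out. No alternative gave a call against the other arrays; 155 to 618 spots had an unadjusted p under 0.05, and the smallest adjusted p was 0.22. In 25 further lists 250 of 345 values moved by less than the spread over arrays. The values that moved by over 1.5 times were 16.6 for oligodendrocyte markers with position medians removed, 29.1 for ion channels without the brightest spots and their neighbours, and, with only genes of 2 or more clones, 79.2 for chromatin regulators, 9.34 for interleukins and 43.1 for axon growth genes. Immediate early genes were at 41.3 without the brightest spots and 33.4 to 45.5 with an array left out. Arms were compared within times in the fit, and 155 spots had an unadjusted p under 0.05 without the time term. All samples carry the same replicate number, which pairs none of them. With 3 arrays, differences under the spread between them were not detectable.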
